A study of Homo sapiens with 4 samples.

Results

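MHC class I and the machinery that loads it were followed here through 9 genes: the heavy chains HLA-B, HLA-C and HLA-E, the light chain B2M, the peptide transporter TAP1 and TAP2, the loading factor TAPBP (tapasin), and the immunoproteasome subunits PSMB8 and PSMB9. They were taken by symbol from the 33538 genes listed in the count matrices, and all 9 were found. HCEC 1CT cells, which derive from human colonic epithelium and were made immortal by TERT and CDK4, carried an shRNA directed at the tumour suppressor APC (shAPC) or a scrambled control (shScr, labelled shScramble) and were selected in puromycin. Cells of both kinds were harvested 3 or 7 days after the virus was added and sequenced by droplet single-cell RNA sequencing. The 4 groups are shScr at day 3 and day 7 and shAPC at day 3 and day 7. Each group held 1 library of 1 line, which leaves every difference without a check by replicates and without a p-value. The question of each comparison was whether the level of these genes differed between shAPC and shScr cells of the same day, or between days within 1 shRNA.

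MHC class I molecules show short peptides from inside the cell to CD8 T cells and natural killer cells. Proteasomes cut proteins into peptides, and in cells exposed to interferon the immunoproteasome subunits PSMB8 and PSMB9 can replace the constitutive subunits PSMB5 and PSMB6. The transporter formed by TAP1 and TAP2 carries the peptides into the endoplasmic reticulum, where tapasin, calreticulin (CALR) and PDIA3 help to load them onto a heavy chain paired with B2M. Transcription of these genes is known to respond to interferon through factors such as IRF1, to NF-kB, and to the transactivator NLRC5.

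Of the 9 genes, 8 lie in the MHC region of chromosome 6 and B2M lies on chromosome 15. RefSeq promoter windows (GRCh38.p14, 250 bases before the gene start and 50 after it) were matched for 8 of the 9, all but HLA-E. The windows below are the 5 that held a searched motif, and are shown because these motifs are those of the factors named above. They are HLA-B at chr6:31357130-31357429 (minus strand), B2M at chr15:44711267-44711566 (plus strand), TAP1 at chr6:32853655-32853954 (minus strand), TAP2 at chr6:32838690-32838989 (minus strand) and TAPBP at chr6:33314029-33314328 (minus strand). Capitals mark matches to an interferon response element core (GAAANNGAA) or to a form of the NF-kB site (GGGNNTTCC), on either strand.
HLA-B: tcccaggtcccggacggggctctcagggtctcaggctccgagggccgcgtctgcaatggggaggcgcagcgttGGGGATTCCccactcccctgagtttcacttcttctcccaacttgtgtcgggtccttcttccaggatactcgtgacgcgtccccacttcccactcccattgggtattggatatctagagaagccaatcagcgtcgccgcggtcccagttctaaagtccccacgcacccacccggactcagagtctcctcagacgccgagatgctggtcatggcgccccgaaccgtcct
B2M: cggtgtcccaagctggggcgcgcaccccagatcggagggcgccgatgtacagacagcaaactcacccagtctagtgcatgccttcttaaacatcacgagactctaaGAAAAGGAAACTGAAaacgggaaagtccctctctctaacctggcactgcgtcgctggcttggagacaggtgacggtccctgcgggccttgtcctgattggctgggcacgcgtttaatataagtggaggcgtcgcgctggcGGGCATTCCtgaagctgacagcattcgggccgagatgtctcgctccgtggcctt
TAP1: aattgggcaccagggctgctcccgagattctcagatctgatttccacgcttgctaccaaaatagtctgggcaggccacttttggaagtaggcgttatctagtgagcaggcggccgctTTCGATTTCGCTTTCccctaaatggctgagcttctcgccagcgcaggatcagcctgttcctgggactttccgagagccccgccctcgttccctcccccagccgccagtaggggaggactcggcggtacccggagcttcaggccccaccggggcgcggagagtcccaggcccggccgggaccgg
TAP2: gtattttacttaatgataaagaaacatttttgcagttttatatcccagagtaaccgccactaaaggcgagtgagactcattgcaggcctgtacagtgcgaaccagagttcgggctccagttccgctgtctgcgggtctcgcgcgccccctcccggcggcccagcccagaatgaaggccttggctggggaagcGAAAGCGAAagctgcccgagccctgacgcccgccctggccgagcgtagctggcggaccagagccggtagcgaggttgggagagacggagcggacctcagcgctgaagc
TAPBP: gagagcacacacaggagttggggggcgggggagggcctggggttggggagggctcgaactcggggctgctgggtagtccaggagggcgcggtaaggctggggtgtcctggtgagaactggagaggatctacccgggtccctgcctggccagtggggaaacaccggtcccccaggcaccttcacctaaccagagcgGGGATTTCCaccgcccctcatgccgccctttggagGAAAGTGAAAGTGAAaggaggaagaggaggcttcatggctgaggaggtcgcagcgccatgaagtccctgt

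The interferon response element core was found in 4 of the 8 windows (B2M, TAP1, TAP2 and TAPBP), against 8.11% of all 35116 RefSeq promoter windows of the same length. In B2M, TAP1 and TAPBP the core occurred 2 times in overlapping tandem, and in TAP1 it lay on the opposite strand. The NF-kB form was found in 3 of the 8 (HLA-B, B2M and TAPBP), against 6.58% of all windows. The interferon gamma-activated site motif TTCNNNGAA was in 0 of the 8 and in 7.66% of all windows. The windows of HLA-C at chr6:31272043-31272342, PSMB8 at chr6:32844630-32844929 and PSMB9 at chr6:32853942-32854241 held none of the 3 forms in these letters. Forms with another order or spacing of the letters were not searched, so a window without a match can still hold a site. The HLA-B and HLA-C windows held tttcacttc and the TAP1 window held gggactttcc, which these letters do not match. PSMB9 is transcribed away from TAP1, and the upstream ends of their windows overlap. TAPBP held matches to both the interferon and the NF-kB form, and its transcript was lower in shAPC than in shScr at both days, as described below.

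Levels are in CPM, the UMIs of a gene (distinct transcript molecules) per 1000000 UMIs of the kept cells of a library. Kept cells at day 3 numbered 1116 (shScr) and 788 (shAPC), and at day 7 2600 (shScr) and 1478 (shAPC), with 28451455 to 39797418 UMIs per library. The median kept cell held 35109, 49685.5, 1330 and 21029.5 UMIs in that order, so shScr day 7 stood apart by its many shallow cells. The targeted gene APC, at 16.1 and 5.52 CPM in shScr and shAPC at day 3 and at 19.1 and 6.61 CPM at day 7, was lower in both shAPC libraries. Of the markers that define epithelium, EPCAM had 0 to 2 UMIs and CDH1 0 or 1 UMI in a library and KRT8 was at 9.57 to 19.4 CPM, whereas VIM, an intermediate filament of mesenchymal cells, was at 4010 to 5303 CPM and CDK4, used to immortalise the line, at 66.1 to 97.7 CPM, so the label of epithelial cells was not borne out by those markers. The shAPC and shScr libraries of day 3 shared 19 kept barcodes and other pairs of libraries 1 to 7. The version of the counting software also differed between shScr and shAPC and cannot be told apart from the shRNA.

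The intervals given are 95% intervals that cover counting error only: exact Poisson for a level, exact binomial for a share of cells, and exact conditional binomial for a ratio. Fewer cells that express a gene and less RNA of it per cell cannot be told apart in summed counts. HLA-B, HLA-C and HLA-E are related genes of 1 family, HLA-B and HLA-C the closer pair, and how reads that fit more than 1 of them were assigned is not stated, so their split is uncertain. In GENCODE 44 (hg38) PSMB9 overlaps TAP1 and PSMB8 on the opposite strand, and whether the counting used strand is not stated, so a part of their reads could be interchanged. All 9 genes are protein coding, and none was below the floor of 3 UMIs in a library.

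**Figure D1:**
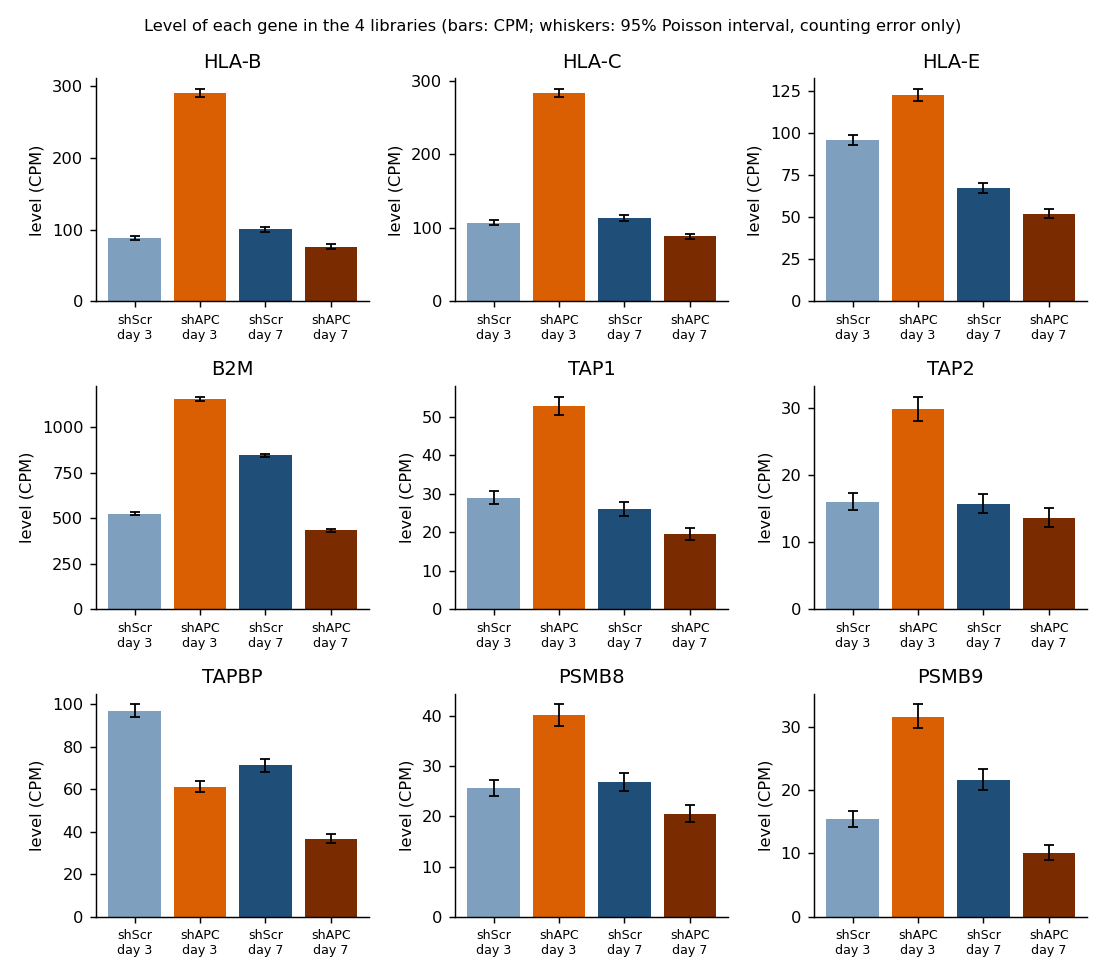
Level in CPM (y axes, from 0) of each of the 9 genes in the 4 libraries (x axes), with 95% Poisson intervals as whiskers. For 8 of the 9 the tallest bar is shAPC day 3, with HLA-B at 290.2 CPM, and the exception is TAPBP, highest in shScr day 3 at 96.9 CPM.

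At day 3 the heavy chains HLA-B and HLA-C and the light chain B2M were more than 2-fold higher in shAPC than in shScr, and HLA-E, the non-classical heavy chain that is read by natural killer cell receptors, differed little. B2M was below 2-fold with TMM (log2 ratio 0.76), with DESeq2 size factors (0.78) and relative to all genes (0.86). HLA-B (ENSG00000234745, chromosome 6 at 31353872 to 31367067, minus strand) was at 88.6 CPM in shScr day 3 (85.7 to 91.6), 290.2 CPM in shAPC day 3 (284.6 to 295.9), 100.5 CPM in shScr day 7 (97.0 to 104.1) and 76.2 CPM in shAPC day 7 (73.1 to 79.5). Its shAPC day 3 library stood alone, 3.27-fold above shScr of the same day (3.15 to 3.40), while the other 3 libraries lay close together and shAPC day 7 was the lowest.

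HLA-C (ENSG00000204525, chromosome 6 at 31268749 to 31272130, minus strand) had levels of 107.1, 283.4, 113.4 and 88.9 CPM in the same order of libraries. Its order was that of HLA-B, with a day 3 fold of 2.64 (2.55 to 2.74) and a day 7 level in shAPC of 78.4% of shScr. The ratio of HLA-B to HLA-C UMIs within a library was 0.827 (0.791 to 0.865) in shScr day 3, 1.02 (0.996 to 1.05) in shAPC day 3, 0.886 in shScr day 7 and 0.858 in shAPC day 7. Thus HLA-B was further above its control than HLA-C at day 3, and the ratio was highest in shAPC day 3.

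HLA-E (ENSG00000204592, chromosome 6 at 30489509 to 30494194, plus strand) had levels of 95.8, 122.3, 67.1 and 52.1 CPM. At day 3 its level in shAPC was 1.28-fold that of shScr (1.22 to 1.33), a log2 ratio of 0.35 that turned to -0.03 with TMM scaling and -0.01 with DESeq2 size factors, so its direction at day 3 depended on the scaling. Unlike HLA-B and HLA-C, HLA-E was lower at day 7 than at day 3 in both shRNA groups. HLA-B had 0.926 UMIs per HLA-E UMI in shScr day 3 (0.884 to 0.969) and 2.37 in shAPC day 3 (2.29 to 2.46), against 1.5 and 1.46 in shScr and shAPC at day 7.

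B2M (ENSG00000166710, chromosome 15 at 44711358 to 44718851, plus strand), without which the heavy chains do not reach the cell surface, was at 525.4 CPM in shScr day 3 (518.3 to 532.5), 1157 CPM in shAPC day 3 (1146 to 1168), 845.5 CPM in shScr day 7 (835.3 to 855.8) and 433.4 CPM in shAPC day 7 (425.8 to 441.1). The shAPC library was the higher of the pair at day 3, 2.20-fold (2.17 to 2.24), and the lower at day 7, at 51.3% of shScr. B2M differed from the heavy chains in the shScr libraries, where its level at day 7 was 1.61-fold that at day 3 (1.58 to 1.64) while HLA-B and HLA-C were at 1.13-fold and 1.06-fold. B2M UMIs per HLA-B UMI were 5.93, 3.99, 8.41 and 5.68 in the 4 libraries in the order above, lowest in shAPC day 3.

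Both subunits of the peptide transporter were higher in shAPC at day 3, and tapasin was lower at both days. TAP1 (ENSG00000168394, chromosome 6 at 32845209 to 32853816, minus strand) had levels of 29.0, 52.8, 25.9 and 19.5 CPM, with a day 3 fold of 1.82 (1.69 to 1.959). TAP2 (ENSG00000204267, chromosome 6 at 32821833 to 32838739, minus strand) had levels of 16.01, 29.9, 15.8 and 13.6 CPM, with a day 3 fold of 1.87 (1.69 to 2.06). The subunits kept a similar balance at day 3, with 1.81 TAP1 UMIs per TAP2 UMI in shScr (1.65 to 2.00) and 1.77 in shAPC (1.64 to 1.91).

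TAPBP (ENSG00000231925, chromosome 6 at 33299694 to 33314284, minus strand), which bridges the transporter and the empty heavy chain, had levels of 96.9, 61.2, 71.2 and 36.7 CPM. It was at 63.2% of shScr at day 3 (log2 ratio -0.66, -0.74 to -0.59) and at 51.5% at day 7 (log2 ratio -0.96, -1.06 to -0.85). Of the 9 genes it alone was lower in shAPC at both days under total-count scaling, and with TMM and DESeq2 scaling HLA-E had day 3 values below 0 as well, at the sizes given above. The number of TAP1 UMIs per TAPBP UMI was 0.300 in shScr day 3 (0.280 to 0.320) and 0.863 in shAPC day 3 (0.810 to 0.919), against 0.364 and 0.533 at day 7. HLA-B UMIs per TAPBP UMI likewise went from 0.915 in shScr to 4.74 in shAPC at day 3, and from 1.41 to 2.08 at day 7.

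The immunoproteasome subunits were higher in shAPC at day 3 and lower at day 7. PSMB8 (ENSG00000204264, chromosome 6 at 32840717 to 32844679, minus strand) had levels of 25.6, 40.2, 26.8 and 20.6 CPM, with a day 3 fold of 1.57 (1.45 to 1.70). PSMB9 (ENSG00000240065, chromosome 6 at 32844136 to 32859851, plus strand) had levels of 15.4, 31.6, 21.6 and 10.1 CPM. Its day 3 fold was 2.06 (1.86 to 2.27), and at day 7 it was at 46.6% of shScr, the lowest percentage of the 9.

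Each immunoproteasome subunit was also set against the constitutive subunit it replaces. PSMB8 UMIs per PSMB5 UMI were 0.113 in shScr day 3 (0.106 to 0.120), 0.183 in shAPC day 3 (0.172 to 0.193), 0.0988 in shScr day 7 (0.0920 to 0.106) and 0.0906 in shAPC day 7 (0.0831 to 0.0986). PSMB9 UMIs per PSMB6 UMI were 0.129 (0.118 to 0.140), 0.225 (0.211 to 0.241), 0.141 (0.129 to 0.152) and 0.113 (0.100 to 0.128) in the same order. Both were highest in shAPC day 3, and at day 7 the PSMB8 intervals of the 2 shRNAs overlapped. PSMB10, the remaining subunit of the immunoproteasome, behaved otherwise, with 0.0752, 0.0629, 0.0683 and 0.111 UMIs per PSMB7 UMI, highest in shAPC day 7. The number of UMIs in a ratio depends on how well each gene is captured, so only its change between libraries is read.

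**Figure D2:**
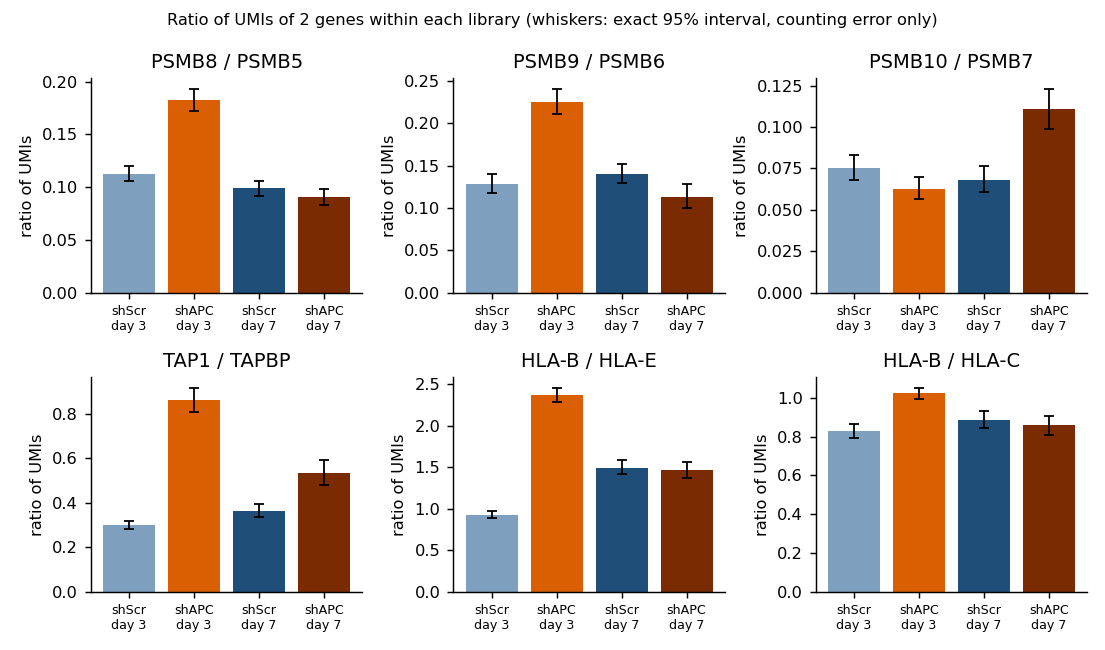
Ratio of the UMIs of 2 genes within each library (y axes, from 0; no unit), with exact 95% intervals as whiskers, for the pairs named above each panel. PSMB8 to PSMB5, PSMB9 to PSMB6, TAP1 to TAPBP and HLA-B to HLA-E are highest in shAPC day 3, at 0.183, 0.225, 0.863 and 2.37, and PSMB10 to PSMB7 is highest in shAPC day 7, at 0.111.

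Over the 9 genes, 8 were higher in shAPC at day 3 and 9 were lower at day 7, with the exception in direction of HLA-E at day 3 under TMM and DESeq2 scaling. A gene was called where log2 of CPM with a pseudocount of 1 differed by at least 1 between libraries, among genes of at least 20 CPM in 1 of them. At day 3 this called 3 of 9 as higher (HLA-B, HLA-C and B2M) and 0 as lower, where 3.86% of the 5175 genes tested were called higher and 0.425% lower. PSMB9 lay just short of the call at 0.99 on that scale. The median log2 ratio of the 9 was 0.90, and that of all genes tested was 0.28, so relative to all genes HLA-B was at 1.44, HLA-C at 1.13, B2M at 0.86, PSMB9 at 0.76, TAP2 at 0.62, TAP1 at 0.59, PSMB8 at 0.37, HLA-E at 0.08 and TAPBP at -0.94. TMM scaling lowered all day 3 log2 ratios by 0.38 and DESeq2 size factors by 0.36, and under both the 3 genes called were HLA-B and HLA-C as higher and TAPBP as lower (-1.04 and -1.03).

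At day 7, 8 of the 9 reached 20 CPM in 1 library, all but TAP2, and 1 of these, PSMB9, was called lower and 0 higher. Among all 4573 genes tested, 1.77% were called lower and 0.787% higher. B2M and TAPBP came next, with log2 ratios of -0.96 each, and the other 6 lay between -0.41 (TAP1) and -0.21 (TAP2, -0.40 to -0.01). All genes tested had a median of -0.10. The day 7 count was small and moved with the settings, from 0 with cells of at least 2000 UMIs or a mitochondrial limit of 10% to 3 with the mean over cells of each cell's CPM.

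**Figure D3:**
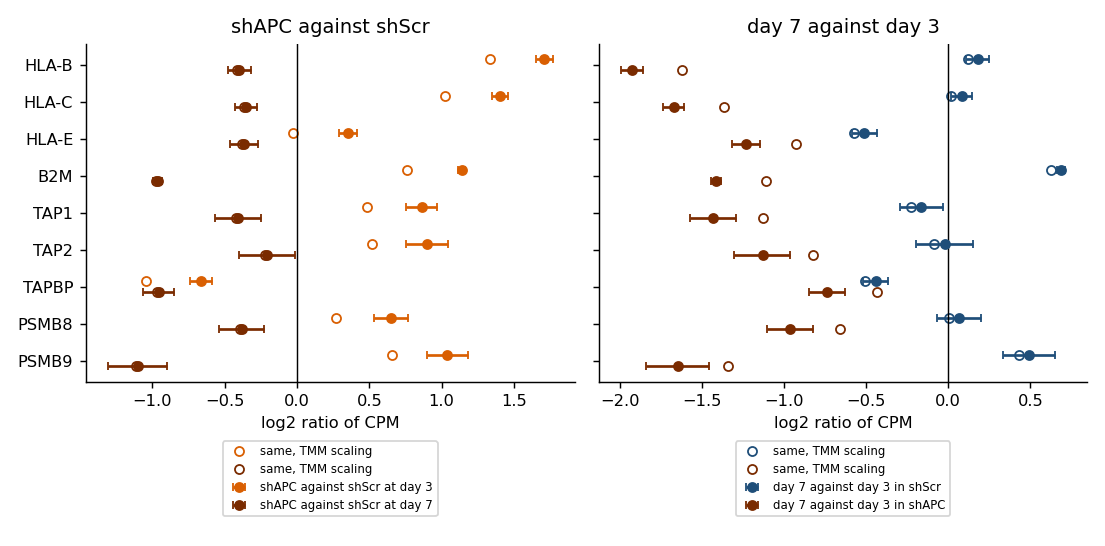
Log2 ratio of CPM (x axes) of each of the 9 genes, for shAPC against shScr on the left and for day 7 against day 3 on the right, with filled points for total-count scaling, exact 95% intervals as whiskers, and open points for TMM scaling. Filled day 3 points run from -0.66 (TAPBP) to 1.71 (HLA-B) and all filled day 7 points on the left lie below 0, and the open day 3 point of HLA-E lies at -0.03.

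Within shAPC, all 9 genes were lower at day 7 than at day 3, and within shScr the differences were smaller and in both directions. The shAPC comparison called 7 of 9 as lower, all but TAPBP (log2 ratio -0.74) and PSMB8 (-0.97), against 5.78% of the 5176 genes tested, and 0 as higher against 0.058%. The largest of these log2 ratios were -1.93 (HLA-B, -2.00 to -1.86), -1.67 (HLA-C) and -1.65 (PSMB9), and -1.59, -1.34 and -1.31 after subtraction of the all-gene median of -0.34. With TMM, DESeq2 size factors or that subtraction, 5 of the 9 were called lower. The shScr comparison called 0 of the 8 genes that reached 20 CPM, against 0.329% of 4556 genes called higher and 0.79% called lower. With the mean over cells of each cell's CPM, in which the many shallow cells of shScr day 7 weigh as much as deep ones, 2 were called higher, the median log2 ratio of the 9 went from 0.06 to 0.73, and TAP1 and TAP2 went from -0.16 and -0.02 to 0.44 and 0.73. With total-count scaling, the log2 ratios within shScr ran from -0.51 (HLA-E) and -0.44 (TAPBP) to 0.49 (PSMB9) and 0.69 (B2M). The comparisons share libraries with those above, so their values are given side by side and are not independent.

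With depth set equal at 2000 UMIs, the shAPC and shScr shares of cells with a UMI were ordered as the CPM of that day for 8 of the 9 genes, and TAP2 at day 7 was the exception. Each cell was thinned at random to 2000 UMIs, which left out 217 cells of shScr day 3, 115 of shAPC day 3, 1402 of shScr day 7 and 391 of shAPC day 7. A B2M UMI was then found in 60.2% of 899 cells of shScr day 3 (56.9% to 63.4%), 81.3% of 673 cells of shAPC day 3 (78.1% to 84.2%), 72.1% of 1198 cells of shScr day 7 (69.5% to 74.6%) and 54.9% of 1087 cells of shAPC day 7 (51.9% to 57.9%). HLA-B was found in 14.8%, 37.0%, 14.7% and 13.2% and HLA-C in 16.4%, 37.1%, 18.5% and 14.8% in the same order. For TAPBP the shares were 16.9%, 12.9%, 12.2% and 5.61%, lower in shAPC at both days.

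The scarcer genes were seen in few thinned cells, with TAP1 in 4.89%, 8.17%, 5.09% and 4.32%, TAP2 in 3.78%, 7.43%, 2.42% and 3.13%, PSMB8 in 6.01%, 6.09%, 4.92% and 3.59%, PSMB9 in 5.23%, 7.58%, 4.84% and 2.21%, and HLA-E in 14.8%, 19.2%, 11.7% and 8.0%. The shAPC and shScr shares lay within each other's intervals for PSMB8 at day 3 and, at day 7, for HLA-B (12.7% to 16.8% in shScr and 11.3% to 15.4% in shAPC), TAP1 (3.92% to 6.49% and 3.19% to 5.71%) and TAP2 (1.63% to 3.46% and 2.18% to 4.34%), so no difference in these shares was detectable at this depth. The TAP2 exception at day 7 was not seen at other depths. Its shares in shScr and shAPC were 1.54% and 1.00% after thinning to 1000 UMIs and 6.85% and 5.33% after thinning to 5000. At 1000 UMIs PSMB8 at day 7 was the exception instead, with 2.53% and 2.59%. Without thinning, B2M was found in 87.5%, 93.7%, 82.9% and 85.0% of cells, HLA-B in 63.5%, 81.5%, 41.1% and 53.7%, and PSMB9 in 30.6%, 47.8%, 15.8% and 14.1%, and the unthinned day 7 shares of HLA-B were ordered against its CPM. No cell type that should lack class I was present for a background share. The blood cell genes PTPRC, CD3E and LYZ, which this line should lack, were found in 0 to 2 cells of each library without thinning.

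**Figure D4:**
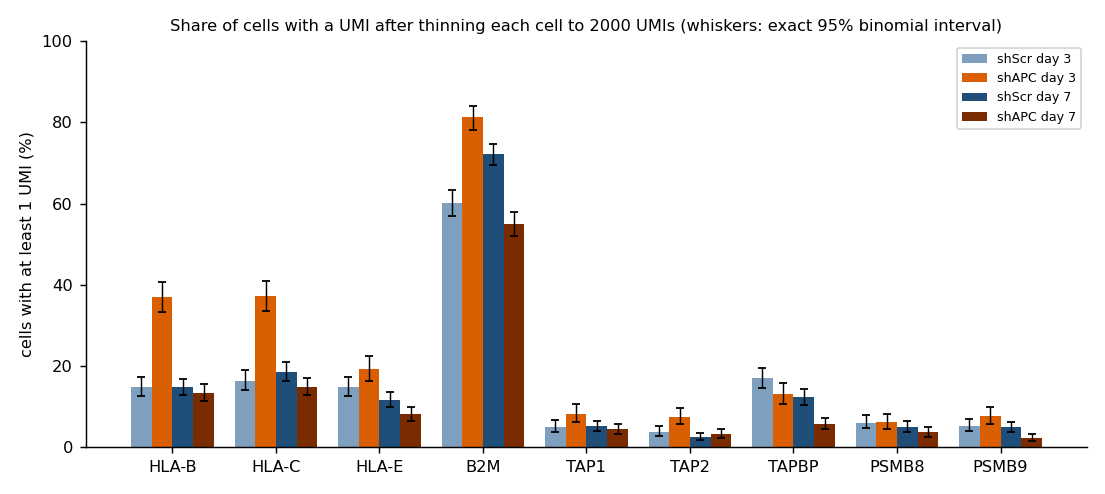
Share of cells with at least 1 UMI of each gene (y axis, percent, from 0) after thinning each cell to 2000 UMIs, with exact 95% binomial intervals as whiskers and 1 bar per library. The shAPC day 3 bar is the tallest for every gene but TAPBP, with HLA-B at 37.0% against 13.2% to 14.8% in the other libraries.

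The spread over single cells was examined in cells of at least 10000 UMIs, thinned to 10000. At day 3 the median cell held 5 B2M UMIs in shScr and 9 in shAPC, and at day 7 it held 6 and 3. In the same order the 90th percentiles were 10, 21, 14 and 8, and the highest cells held 23, 129, 57 and 26. The whole distribution of B2M in shAPC day 3 lay to the right of the others, and it was also the widest, with a ratio of variance to mean of 8.07 against 2.47, 4.99 and 2.57. HLA-B was found in 83.7% of such cells in shAPC day 3 and in 44.2% to 48.7% in the other libraries. Its ratio of variance to mean was 3.42 in shAPC day 3 and 1.69 to 1.78 elsewhere. For HLA-E, TAP2, TAPBP and PSMB8 this ratio was 0.956 to 1.19 in all 4 libraries. At equal relative spread the ratio rises with the mean, so it does not compare spread between genes or libraries of unlike means. The mean HLA-B count per cell was 2.85 UMIs in shAPC day 3 and 0.720 to 0.840 elsewhere.

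**Figure D5:**
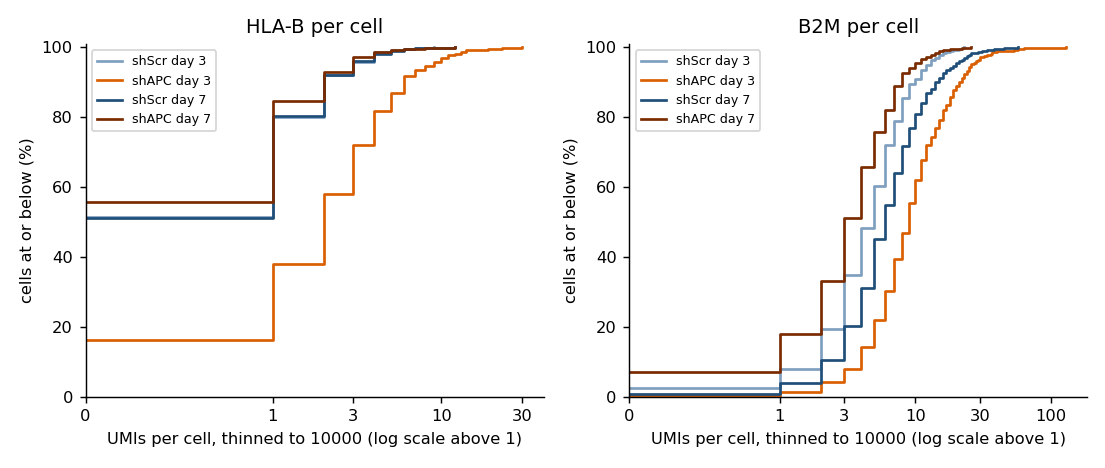
Share of cells (y axes, percent) with at most the given number of UMIs of HLA-B (left) or B2M (right) after thinning to 10000 UMIs (x axes, logarithmic above 1), with 1 line per library. The shAPC day 3 line lies to the right of the other 3 in both panels, with a median of 9 B2M UMIs against 3 to 6.

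Over the same thinned cells of shAPC day 3, Spearman's rho was 0.42 between HLA-B and HLA-C, 0.42 between HLA-B and B2M and 0.50 between HLA-C and B2M (576 cells). In the other 3 libraries these values ran from 0.19 to 0.27 over 765 to 927 cells. For HLA-B and TAPBP it was 0.06 in shAPC day 3 and 0.04 to 0.13 elsewhere. These are descriptions of cells that share 1 library and 1 depth, and counts this low limit how large rho can be.

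The genes known to drive class I transcription were next described, from a list of 12. At day 3, 6 of the 12 reached 20 CPM in 1 library, all 6 were higher in shAPC, and 1 was called, IRF1, an interferon-induced activator of class I promoters. Of all genes tested at day 3, 3.86% were called higher. The median log2 ratio of all genes tested was also above 0, at 0.28. IRF1 was at 9.85, 56.4, 16.04 and 9.81 CPM in the 4 libraries, a day 3 fold of 5.72 and a day 7 level of 61.1% of shScr. The NF-kB subunits RELA and NFKB1 were at 32.0, 45.1, 26.1 and 27.5 CPM and at 26.5, 43.2, 24.3 and 17.5 CPM. Their day 3 log2 ratios of 0.49 and 0.70 became 0.11 and 0.32 with TMM scaling. RFXANK, a subunit of the RFX complex that binds class I promoters, was at 19.4, 38.3, 20.9 and 17.8 CPM, a day 3 log2 ratio of 0.98 (0.85 to 1.11). IRF1, RELA, NFKB1 and RFXANK were thus highest in shAPC day 3, like 8 of the 9 class I genes. NFKB1 and RFXANK were lowest in shAPC day 7, where IRF1 was about level with shScr day 3 (9.81 and 9.85 CPM). RELA was lowest in shScr day 7 (26.1 CPM). NLRC5, named here for its known role although its level was low, had 137, 182, 70 and 70 UMIs, a day 3 log2 ratio of 0.60 (0.27 to 0.93) and a day 7 log2 ratio of 0.13 (-0.36 to 0.63).

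Among the interferons, IFNB1 had 0, 829, 11 and 1 UMIs in the 4 libraries, IFNG had 0 in each, and IFNL1 had 1 UMI in shAPC day 3 and 0 elsewhere. Of 5 reference genes that interferon is known to induce, 5 were called higher at day 3 (IFI6, MX1, IFI27, IFIT1 and ISG15), against 3.86% of all genes tested. At day 7, 3 of the 4 that reached 20 CPM were called lower (IFI6, IFI27 and ISG15), against 1.77% of all genes tested. ISG15 was at 268.4, 1199, 312.8 and 143.2 CPM. The median log2 ratio of the reference genes on the pseudocount scale was 2.32 at day 3, against 0.86 for the 9 class I genes, and -1.35 at day 7, over the 4 that reached 20 CPM, against -0.39 for the 8 class I genes tested. Of the receptor and kinase genes, IFNAR1 (29.6, 29.4, 29.4 and 23.3 CPM), IFNGR2 (50.2, 62.7, 64.4 and 44.5 CPM) and JAK1 (99.1, 103.0, 125.1 and 116.9 CPM) were not called at either day.

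The IFNB1 UMIs of shAPC day 3 lay in 16 of 788 cells (2.03%, 1.16% to 3.28%), and 10 cells held 99.3% of them. Of the 829 UMIs, 585 were in 1 cell. Among cells of at least 10000 UMIs, those 16 had 2520 CPM of B2M against 1084 CPM in the 560 without an IFNB1 UMI, a log2 ratio of 1.22 (1.17 to 1.27). HLA-B (602 against 276 CPM), TAP1 (104 against 50.8 CPM) and HLA-C (553 against 270.0 CPM) were also higher in them, by log2 ratios of 1.12, 1.04 and 1.03, while the intervals of TAPBP (0.22, -0.07 to 0.50) and TAP2 (-0.18, -0.67 to 0.28) included 0. The cells with IFNB1 were deeper, with a median of 86930.5 UMIs against 57022.5, so depth moves with this result. When IFNB1 was sought after every cell of at least 10000 UMIs had been thinned to 10000, 4 cells were left, and the log2 ratios were 2.44 for B2M (2.24 to 2.63), 2.11 for HLA-B (1.66 to 2.52) and 0.73 for TAP2 (-2.32 to 2.61). These intervals cover counting error only. They leave out the spread between the 16 or 4 cells, which are not replicates. Without the 16 cells the day 3 log2 ratio against shScr was 1.64 for HLA-B, 1.34 for HLA-C, 1.06 for B2M, 1.01 for PSMB9 and 0.80 for TAP1, nearly as large as with them.

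Of the rest of the presentation machinery, 13 genes in 4 lists reached 20 CPM at day 3, and 1 of them, PSME2, was called. Over all genes tested, 3.86% were called higher and 0.425% lower at day 3, and 0.787% and 1.77% at day 7. Of the 6 genes of peptide loading and trimming, 3 reached 20 CPM and 0 were called at either day. TAPBPL, which was below 20 CPM and was chosen after its values were seen, had 67, 173, 54 and 31 UMIs. Its day 3 fold of 2.94 (2.21 to 3.96) rests on few UMIs. CALR was at 488.7, 535.6, 422.1 and 435.7 CPM, PDIA3 at 109.9, 133.4, 110.9 and 97.6 CPM, and calnexin (CANX), which folds new heavy chains, at 236.8, 170.2, 208.4 and 150.7 CPM, lower in shAPC at both days like TAPBP. Of 4 partners of the immunoproteasome, PSME2, a subunit of the activator PA28, was higher in shAPC at day 3, with levels of 64.4, 148.4, 92.3 and 57.7 CPM. Its partner PSME1 was at 72.6, 117.7, 69.0 and 57.2 CPM, and the assembly factor POMP was at 342.7, 392.9, 500.1 and 314.6 CPM.

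The constitutive subunits had 0 of 3 called, with PSMB5 at 227.1, 220.1, 271.1 and 227.0 CPM, PSMB6 at 119.6, 140.3, 154.0 and 89.0 CPM and PSMB7 at 145.0, 177.5, 155.2 and 117.6 CPM. With the low shares of all genes called given above, few or no calls are the usual outcome in lists this short. Of 6 cytosolic peptidases, 4 reached 20 CPM and 0 were called against shScr at either day. Among them LAP3, a leucine aminopeptidase, was at 34.6, 60.8, 27.1 and 23.5 CPM, NPEPPS at 32.8, 53.4, 32.5 and 48.7 CPM, and NRDC at 48.9, 54.5, 52.8 and 50.6 CPM. At day 7 NPEPPS was higher in shAPC by a log2 ratio of 0.58 while all 9 class I genes were lower.

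Of 6 other class I and class I-like genes, FCGRT was the only one at 20 CPM, with 23.1, 25.4, 23.6 and 15.2 CPM, followed by MR1 at 14.2, 17.0, 12.8 and 10.6 CPM and HFE at 4.85, 6.18, 4.23 and 4.18 CPM. None of these 3 had a 2-fold difference between shAPC and shScr. HLA-F, chosen after its values were seen, had 31, 146, 33 and 14 UMIs. Its day 3 fold of 5.36 (3.62 to 8.18) rests on few UMIs and is larger than that of HLA-B (3.27, 3.15 to 3.40). Of 8 ligands of the natural killer receptor NKG2D, MICA was at 129.5, 165.6, 111.8 and 86.2 CPM, and MICB and ULBP2 were below 8 CPM in each library. MICA, which lies in the MHC region beside HLA-B, had a day 3 log2 ratio of 0.35 that turned to -0.03 with TMM and -0.01 with DESeq2 scaling. Class II genes were low, with 18.7 to 21.4 CPM summed over 11 genes, 3 or 4 of which had 0 UMIs in a library, and with 5 to 8 UMIs of their activator CIITA. HLA-DPB1 (8.14, 9.41, 10.7 and 8.29 CPM), HLA-DPA1 (2.95 to 3.59 CPM) and HLA-DMA (3.27 to 4.29 CPM) held most of it.

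Markers of blood and endothelial cells, which carry much class I, were checked beside these results. Their summed level over 14 genes was 21.4, 31.2, 18.5 and 23.3 CPM, and 7 to 9 of the 14 had 0 UMIs in a library. The macrophage-associated gene CD68 made up 19.8, 29.6, 17.4 and 22.5 CPM of it, higher in shAPC at both days. Among the defining markers, PTPRC had 0, 0, 0 and 1 UMI, and CD3D, CD3E, MS4A1, NKG7, TYROBP and CDH5 had 0 in all 4 libraries. CD79A had 7, 6, 10 and 11 UMIs, VWF 4, 3, 1 and 2, LYZ 0, 2, 0 and 1, and PECAM1 1, 0, 0 and 0. After CD68, CD14 (0.704, 0.715, 0.576 and 0.105 CPM) and FCER1G (0.628, 0.572, 0.224 and 0.246 CPM) were next by mean level.

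Depth and cell quality were set beside the main values in turn. In cells of at least 10000 UMIs (576 to 927 per library) the day 3 log2 ratios were 1.72 for HLA-B, 1.41 for HLA-C, 1.15 for B2M, 1.05 for PSMB9 and -0.66 for TAPBP. At day 7 they were -0.31, -0.28, -0.90, -1.03 and -0.95 in the same order. Cells of this depth held most of the UMIs of the main sums. For HLA-B they held 9990 of 10141 UMIs in shAPC day 3 and 3451 of 3528 in shScr day 3. Their day 3 values could therefore differ little from the main ones and are no separate check of depth. Cells under 10000 UMIs, 212 to 1681 per library, had day 3 log2 ratios of 1.48 for HLA-B (1.07 to 1.89), 1.02 for B2M (0.89 to 1.16) and -1.05 for TAPBP (-2.04 to -0.14). Their day 7 values reached further below 0 for TAPBP (-1.64, -2.36 to -0.99) and TAP2 (-1.41, -2.70 to -0.31). The strata also differed between days in shScr, where the log2 ratio of day 7 to day 3 was 1.21 for HLA-B in the shallow cells (0.86 to 1.57) and 0.04 in the deep ones (-0.03 to 0.11), 0.81 and -0.04 for HLA-C, and 0.92 and -0.20 for TAP1. Barcodes with 5% or more mitochondrial UMIs, which were left out although they passed the other limits, numbered 346, 245, 1052 and 1551. In them the day 3 log2 ratios were smaller, at 0.98 for HLA-B, 0.50 for HLA-C, 0.37 for B2M and 0.50 for PSMB9, with HLA-E at -0.20 (-0.37 to -0.03) and TAPBP at -0.74. At day 7 they were -0.52 for HLA-B, -1.01 for B2M and -1.24 for TAPBP, and TAP2 had 0.12 (-0.11 to 0.36).

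The genes whose levels over the 4 libraries were most like those of the class I genes were found by Euclidean distance between centred log2 values, among 5298 genes of at least 20 CPM in 1 library. With only 4 points, this describes these libraries and no more. Nearest to the median of the 9 were SLC2A6, SPHK1, SAMHD1, NMI and SERPINB8, at distances of 0.126 to 0.165. Nearest to TAP1 were SLC2A6, NMI, TRIM25, UBE2L6 and SPHK1, at 0.0545 to 0.12. For B2M they were PSMB9, PSME2, FILIP1L, IL32 and CXCL2 (0.212 to 0.249), and for PSMB9 they were FILIP1L, B2M, ICAM1, TNFRSF12A and PSME2 (0.169 to 0.317). B2M and PSMB9 were thus near each other, both with a shScr day 7 level above that of shScr day 3. HLA-B had another set, SERTAD1, NFKB2, GDF15, DDX58 and SERPINB2 (0.0501 to 0.228), of which SERTAD1 was at 20.3, 67.6, 23.0 and 16.6 CPM.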

How the data were processed

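The authors aligned reads to hg38 with Cell Ranger, whose version per the file headers is 3.0.2 in the shScr files and 3.0.0 in the shAPC files, and deposited raw UMI counts per gene and barcode for barcodes called as cells. The labels and methods differ on the virus (retroviral or lentiviral) and on the kit (v2 or V3). The ComBat correction and the imputation of the study were not applied, and their effect was not tested.

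A barcode was kept when it held 200 or more genes, 500 or more UMIs and a mitochondrial share (13 genes) below 5%. Doublets were not removed, and leaving out the 5% of cells with most UMIs in each library was an alternative. UMIs were summed per library and scaled to CPM. Ratios of named genes are plain ratios of CPM, and calls used a pseudocount of 1 CPM, a minimum of 20 CPM in 1 library and a 2-fold difference. With 1 library per group no test was run. Cells were thinned without replacement to 2000 UMIs (1000 and 5000 as alternatives) with a fixed random seed. Scaling alternatives were TMM (edgeR 4.0.16) and size factors (DESeq2 1.42.0) in R 4.3.3. The other steps used Python 3.11.15 with numpy 2.4.6, scipy 1.17.1 and matplotlib 3.10.9. The calls and intervals were tested on library counts simulated with Poisson error, which is the error that the intervals assume. That check does not cover the spread between cells or cultures, and the summing of cells was not part of it.

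The members and the 13 other gene lists were chosen with earlier results of these data known. Named beside the 9 members are the genes of each list that were called 2-fold different between shAPC and shScr, the 3 of each list with the highest mean CPM, APC, and the 5 nearest genes by profile to the member median, HLA-B, B2M, TAP1 and PSMB9. Genes named outside that rule are markers, genes of known role (NLRC5, IFNG, IFNL1, CIITA, PSMB10), HLA-F and TAPBPL. Of the genes in these lists, 2 are not reported here. Promoter sequences are from RefSeq (GRCh38.p14) and gene positions from GENCODE 44. The alternatives without shared barcodes and without cells that hold an IFNB1 UMI were added after the data had been seen.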

Additional observations from a re-analysis of the deposited data

Results flagged for a closer look

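For 8 of the 9 genes the shAPC library lay above shScr at day 3 and below it at day 7, so the difference between shAPC and shScr had opposite signs at the 2 days. The median log2 ratio of all genes tested had the same signs, at 0.28 at day 3 and -0.10 at day 7. The share of all genes that turned in this way was not computed. The change of the log2 ratio from day 3 to day 7 was -2.14 for PSMB9, -2.11 for HLA-B, -2.10 for B2M, -1.75 for HLA-C, -1.27 for TAP1, -1.11 for TAP2, -1.03 for PSMB8 and -0.72 for HLA-E. This difference between days was not tested, because each group holds 1 library. For HLA-E the opposite signs depended on the scaling, since its day 3 value was -0.03 with TMM and -0.01 with DESeq2 size factors. TAPBP did not turn, with a change of -0.29 between 2 values that were both below 0.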

How the results depend on the processing

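No paired analysis was possible because each group holds 1 library. Over the 9 genes the median log2 ratio of shAPC to shScr at day 3, 0.90, became 0.52 with TMM, 0.54 with DESeq2 size factors and 0.62 relative to all genes, and at day 7 the median of -0.40 became -0.71 with the mean over cells of each cell's CPM and -0.30 relative to all genes. The day 7 count of 1 called gene became 3 with the mean over cells, and 0 with totals without mitochondrial and ribosomal protein genes, a mitochondrial limit of 10%, cells of at least 2000 or at least 10000 UMIs, without the 5% of cells with most UMIs, relative to all genes, with a pseudocount of 5 CPM and with a minimum of 100 CPM. Between days in shScr the median of 0.06 became 0.73 and the count of 0 became 2 with the mean over cells. Between days in shAPC the median of -1.42 was -1.11 under either TMM or DESeq2 scaling, -1.24 with totals without mitochondrial and ribosomal protein genes, -1.03 with the mean over cells, -1.30 with all barcodes, -1.32 with a mitochondrial limit of 10%, -1.26 without the 5% of cells with most UMIs, -1.34 without cells that hold an IFNB1 UMI and -1.08 relative to all genes, and the count of 7 became 4 with a minimum of 100 CPM. The median difference in the share of cells with a UMI at day 3, 3.65 percentage points, was 1.03 after thinning to 1000 UMIs, 6.93 after thinning to 5000 and 16.9 without thinning, and at day 7 the value of -2.63 was -4.17 after thinning to 5000 and 6.37 without thinning. The median log2 ratio of shAPC day 3 cells with IFNB1 to those without, 0.58, was 1.71 when IFNB1 was sought after thinning to 10000 UMIs, which left 4 cells. Of 432 single-gene values under 12 alternatives per comparison, 281 stayed within the counting interval, 151 did not and 7 changed sign. The latter were HLA-E at day 3 as given above, and, within shScr, TAP1 and TAP2 (mean over cells), HLA-C (cells of at least 2000 or 10000 UMIs) and PSMB8 (without the 5% of cells with most UMIs). The causes of these shifts were not tested. No alternative addresses the spread between cultures, which 1 library per group does not show.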
